A study of Mus musculus with 5 samples.

Results

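Pax3 and 7 Sox genes of the pigment lineage were described in quiescent melanocyte stem cells (McSC) and in melanocytes of mouse back skin. The members were Pax3, the SoxE genes Sox10, Sox9 and Sox8, the SoxD genes Sox5 and Sox6, and the SoxC genes Sox4 and Sox11. They were taken by name after the Entrez identifiers of the count table had been matched to RefSeq symbols. They make up 8 of the 24100 genes in the table, all 8 were found, and all 8 passed the filter on low counts.

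The 2 quiescent McSC libraries came from males aged 60 days (replicate 1) and 62 days (replicate 2), when hair follicles rest in second telogen, each from 4 pooled mice carrying Dct-eGFP on a CD1/C57Bl6J background. The 3 melanocyte libraries came from males aged 10 days, when follicles grow (full anagen), from 3, 2 and 4 pooled mice of the same mixed background that carried Dct-EGFP and Lef1-RFP. Both populations were sorted as green cells with medium to low integrin α6, without CD31, CD45 and CD140a, and without Sca1 and CD34. The melanocytes were additionally sorted for red Lef1 reporter signal and for c-Kit. The reporter gene Dct, an enzyme of melanin synthesis, is itself a known target of Sox10, so both sorts selected cells on a gene that lies downstream of a member. Age, hair cycle stage, the added Lef1-RFP reporter and the gate differ together between the groups and cannot be told apart.

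Pax3 is a transcription factor with a paired domain and a homeodomain that specifies neural crest cells, from which melanocytes and Schwann cells descend. Sox proteins bind DNA through a shared HMG domain. SoxE proteins carry activation domains, and Sox10 together with Pax3 switches on Mitf, the master regulator of melanocytes. SoxD proteins lack such a domain and are known to tune SoxE activity, in melanocytes by opposing Sox10. SoxC proteins are activators that act in many progenitor cells, hair follicle epithelium among them.

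Counts were summed per gene, and levels are given as CPM, counts scaled to library size, after TMM scaling, a correction for library composition. Total counts ranged from 17512381 to 124530834 per library. Summed over 12 pigment lineage markers, the level was 20522 and 21304 CPM in quiescent McSC, and 3771, 21848 and 23900 CPM in melanocyte replicates 1 to 3, so melanocyte replicate 1 stood apart. Its summed fibroblast and dermal papilla markers were also the highest, at 5624 CPM, against 2060 and 1925 CPM in melanocyte replicates 2 and 3. In quiescent McSC that sum was 71.5 and 32.2 CPM. Hair matrix and hair shaft markers summed to 73.7 and 48.0 CPM in quiescent McSC and to between 2509 and 3740 CPM in melanocytes. Interfollicular epidermis markers summed to 1406 and 2543 CPM in quiescent McSC, against 1356, 1430 and 958 CPM in melanocytes. Of 7 such markers, 5 were higher in quiescent McSC (Krt1, Krt10, Krtdap, Lor and Sbsn) and 2 were lower (Ivl and Dsp). All 12 pigment markers had counts in each group. Of these, 2 were higher in quiescent McSC (Mitf and Kit), 2 were lower (Oca2 and Trpm1) and 8 were neither. Without melanocyte replicate 1, 4 were higher and 8 lower. A large part of the pigment sum was the reporter gene Dct, with 10444 and 11528 CPM in quiescent McSC. In melanocytes Dct had 1073, 5777 and 6505 CPM. Of 9 fibroblast and 8 hair matrix markers in the table, 8 and 8 were lower in quiescent McSC and none was at 0 in a group. The part of such non-pigment cells in the results was not tested. In such bulk samples, fewer cells of a type and less RNA per cell cannot be told apart.

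Of the 8 members, 4 were higher in quiescent McSC (Pax3, Sox10, Sox6 and Sox5), 2 were lower (Sox4 and Sox11) and 2 were not called (Sox9 and Sox8). A gene was called when its adjusted p was under 0.05 in edgeR's quasi-likelihood test across all genes. In the same comparison 55.4% of the 16953 tested genes were called, 26.2% as higher and 29.1% as lower in quiescent McSC, so a call was common among all genes and the count of calls is no property of the members. These shares also stand beside the counts of marker genes called, above and below. The groups did not overlap in 7 of the 8 members, the exception being Sox8, against 74.5% of all tested genes. The median log2 fold change, quiescent McSC minus melanocyte, was 1.14 over the members and -0.03 over all tested genes. Without melanocyte replicate 1, 5 members were higher and 2 lower. With library size as the only scaling the 4 and 2 calls were the same in number, although the share of all calls that was higher in quiescent McSC was 36.3% instead of 47.4%, and the median of all genes was -0.26.

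**Figure D1:**
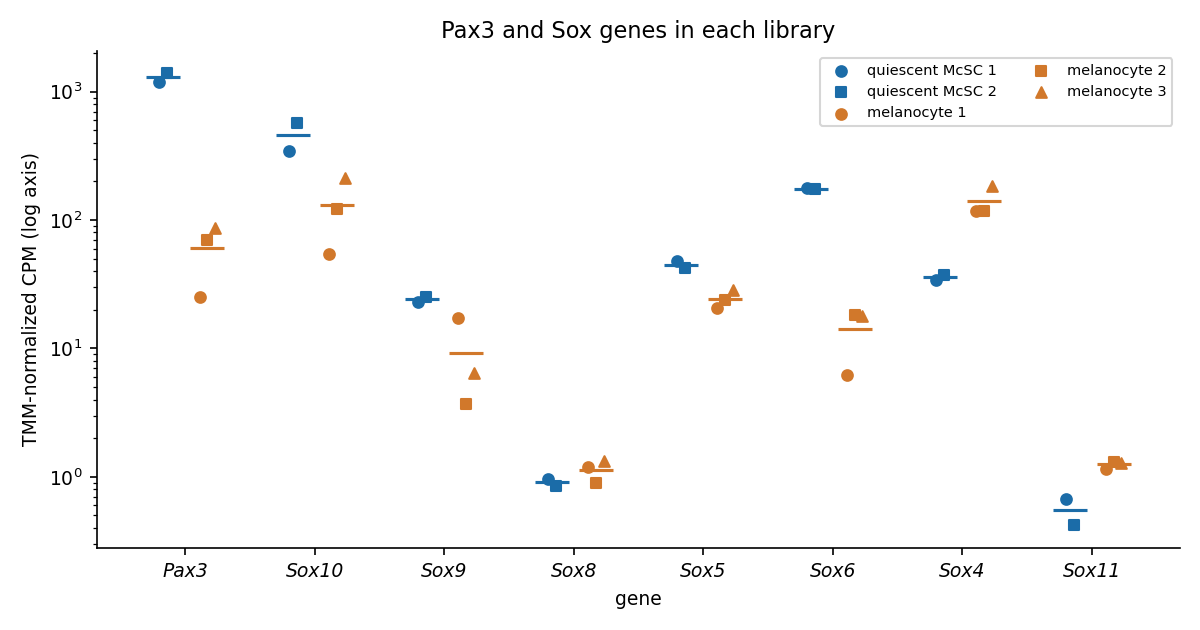
TMM-normalized CPM (log axis) of Pax3 and the 7 Sox genes in each library, with quiescent McSC in blue and melanocytes in orange; marker shapes give the replicate and horizontal lines the group mean. Pax3 is 1189 and 1389 CPM in quiescent McSC against 25.0 to 87.2 CPM in melanocytes, and Sox4 lies the other way round.

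Pax3 (Entrez gene 18505, chromosome 1, 78101267 to 78197136, minus strand, GRCm38) showed the largest difference among the members. It had 1189 and 1389 CPM in quiescent McSC, against 25.0, 69.9 and 87.2 CPM in melanocytes. Both stem cell libraries were far above every melanocyte library, and melanocyte replicate 1 was the lowest. The fitted difference was 21.3-fold (log2 fold change 4.41 ± 0.52 SE, adjusted p = 0.0009). Without melanocyte replicate 1 the log2 fold change was 4.03.

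Sox10 (Entrez gene 20665, chromosome 15, 79154913 to 79164490, minus strand), the SoxE factor that neural crest, glia and melanocytes depend on, stood at 346 and 566 CPM in quiescent McSC, against 54.6, 123 and 212 CPM in melanocytes. The groups did not overlap, but the libraries within each group differed, by 1.64-fold in quiescent McSC and 3.89-fold in melanocytes. The difference was 3.52-fold (log2 fold change 1.81 ± 0.53 SE, adjusted p = 0.0287). Leaving out a library ended the call in 3 cases: quiescent McSC replicate 1 (adjusted p = 0.0574), quiescent McSC replicate 2 (0.158) and melanocyte replicate 2 (0.0861). Without melanocyte replicate 1 it held at a log2 fold change of 1.44 (adjusted p = 0.00674). Its neighbour Polr2f, a polymerase subunit gene 3139 bases away, was lower in quiescent McSC, at 33.8 and 37.0 CPM against 46.9 to 48.1 CPM in melanocytes. The predicted gene Gm10863, 1576 bases from Sox10, had 21.5 and 27.9 CPM in quiescent McSC, against 6.04, 14.6 and 29.9 CPM in melanocytes; the groups overlapped and it passed no threshold.

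Pax3 and Sox10 did not differ to the same extent. Within a library the log2 ratio of Pax3 to Sox10 CPM was 1.78 and 1.29 in quiescent McSC, against -1.13, -0.81 and -1.28 in melanocytes. Every melanocyte library was below both stem cell libraries in this ratio. Per kilobase of exon the order was the same: Pax3 had 192 and 224 RPKM against 113 and 186 RPKM for Sox10 in quiescent McSC, and lay under Sox10 in all 3 melanocyte libraries, at 4.04 to 14.1 RPKM against 17.9 to 69.6 RPKM. The log2 ratio of Pax3 to Dct was -3.13 and -3.05 in quiescent McSC, against -5.42, -6.37 and -6.22 in melanocytes. That of Sox10 to Dct was -4.92 and -4.35 in quiescent McSC, against -4.30, -5.56 and -4.94 in melanocytes, so here the groups overlapped. For Pax3 to Mitf the log2 ratio was 0.01 and 0.43 in quiescent McSC, against -0.80, -0.79 and -0.68 in melanocytes. For Sox10 to Mitf it was -1.77 and -0.87 in quiescent McSC, against 0.32, 0.03 and 0.61 in melanocytes. Relative to Mitf, then, Pax3 was higher and Sox10 lower in quiescent McSC. These ratios are descriptions without a test.

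Sox9 (Entrez gene 20682, chromosome 11, 112782210 to 112787757, plus strand), known from cartilage, from hair follicle stem cells and as an activator of pigment genes, had 23.2 and 25.2 CPM in quiescent McSC, against 17.3, 3.68 and 6.47 CPM in melanocytes. Melanocyte replicate 1 lay close to the stem cell libraries and the other two far below. The log2 fold change was 1.40 ± 0.60 SE and was not called (adjusted p = 0.0937). Once melanocyte replicate 1 was left out, Sox9 was called as higher in quiescent McSC (2.28, adjusted p = 0.000562), and limma-voom (adjusted p = 0.0173) and DESeq2 (adjusted p = 0.0342) called it over all 5 libraries. Of 9 outer root sheath and bulge markers, the epithelium where Sox9 is expressed, 2 were higher in quiescent McSC (Krt15 and Nfatc1). Another 4 were lower (Krt5, Krt17, Lhx2 and Trp63) and 3 were not called. Their summed level was 2102 and 2196 CPM in quiescent McSC, against 3984, 3073 and 2708 CPM in melanocytes, and none was at 0 in a group. The part of such cells in the Sox9 counts was not tested.

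Sox8 (Entrez gene 20681, chromosome 17, 25565893 to 25570686, minus strand), a SoxE gene that acts together with Sox10 in glia, was barely present. It read 0.962 and 0.848 CPM in quiescent McSC, from 60 and 95 counts, against 1.18, 0.894 and 1.34 CPM in melanocytes, from 48, 61 and 25 counts. The groups overlapped, and the log2 fold change of -0.32 ± 0.37 SE was not called (adjusted p = 0.495). The noncoding gene Cerox1 lies 125 bases away and was not called either (log2 fold change -0.63 ± 0.46 SE); the libraries are not stranded, so strand cannot separate such neighbours.

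Sox10 made up most of the SoxE RPKM (CPM per kilobase of exon). Its share was 95.0% and 96.7% in quiescent McSC, against 79.6%, 97.2% and 97.2% in melanocytes. Sox9 gave 4.70% and 3.17% in quiescent McSC, against 18.7%, 2.15% and 2.19% in melanocytes, so melanocyte replicate 1 alone departed from the other libraries. Relative to Sox10 within a library, the groups overlapped in Sox9 and Sox5 but not in Sox6 or Sox4. The log2 ratio of Sox4 to Sox10 CPM was -3.33 and -3.92 in quiescent McSC, against 1.10, -0.06 and -0.21 in melanocytes. That of Sox6 to Sox10 was -0.96 and -1.70 in quiescent McSC, against -3.14, -2.74 and -3.57 in melanocytes.

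**Figure D2:**
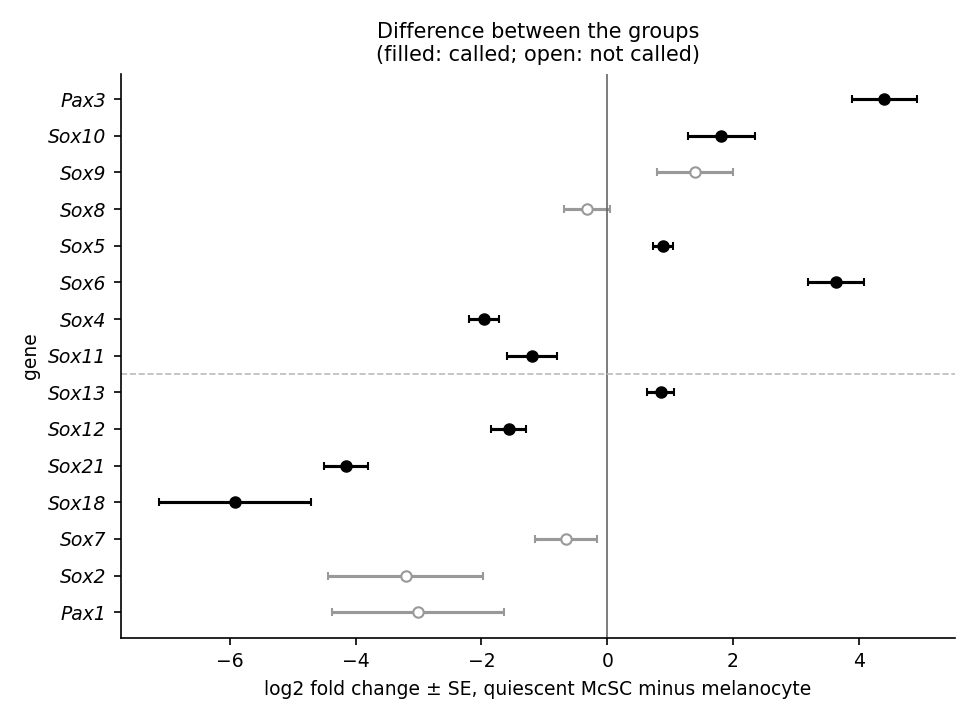
Log2 fold change, quiescent McSC minus melanocyte, with its standard error, for the 8 members above the dashed line and for 7 other Sox and Pax genes of at least 1 CPM in a group below it; filled points are called. Pax3 (4.41) and Sox6 (3.64) lie farthest to the right and Sox18 (-5.92) and Sox21 (-4.16) farthest to the left.

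The SoxD genes were higher in quiescent McSC, to unequal extents. Sox6 (Entrez gene 20679, chromosome 7, 115470872 to 116040776, minus strand), a partner of Sox5 in cartilage, had 178 and 174 CPM in quiescent McSC, against 6.19, 18.4 and 17.9 CPM in melanocytes. The stem cell libraries were almost equal, and melanocyte replicate 1 was again the lowest. The difference was 12.5-fold (log2 fold change 3.64 ± 0.45 SE, adjusted p = 0.00107), and the log2 fold change was 3.27 without melanocyte replicate 1. Sox5 (Entrez gene 20678, chromosome 6, 143828425 to 144782287, minus strand), known in mouse melanocytes to counter Sox10 at pigment gene promoters, had 47.7 and 42.3 CPM in quiescent McSC, against 20.7, 24.0 and 28.3 CPM in melanocytes. All melanocyte libraries were below both stem cell libraries, with little spread. The difference was 1.85-fold (log2 fold change 0.89 ± 0.16 SE, adjusted p = 0.00515).

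Within a library, the log2 ratio of Sox6 to Sox5 CPM was 1.90 and 2.04 in quiescent McSC, against -1.74, -0.39 and -0.67 in melanocytes, without overlap. Such CPM ratios serve to compare libraries; to set the levels of different genes side by side, RPKM were used. Of the summed RPKM of Sox5, Sox6 and the remaining SoxD gene Sox13, Sox6 gave 53.6% and 56.4% in quiescent McSC, against 6.57%, 21.3% and 17.8% in melanocytes. Sox13 gave 31.5% and 29.5% in quiescent McSC, against 70.8%, 49.9% and 52.9% in melanocytes. Sox6 thus led the SoxD genes in the stem cell libraries and Sox13 in the melanocyte libraries. The lead of Sox13 held in each melanocyte library with another length, but its size depended on the length used. With the longest coding transcript in place of all exons, Sox13 gave 59.5%, 38.4% and 41.1% in melanocytes, against 32.4%, 37.6% and 38.6% for Sox5. Summed over the 3 SoxD genes, the RPKM was 22.3 and 20.8 in quiescent McSC, against 6.35, 5.81 and 6.75 in melanocytes.

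**Figure D3:**
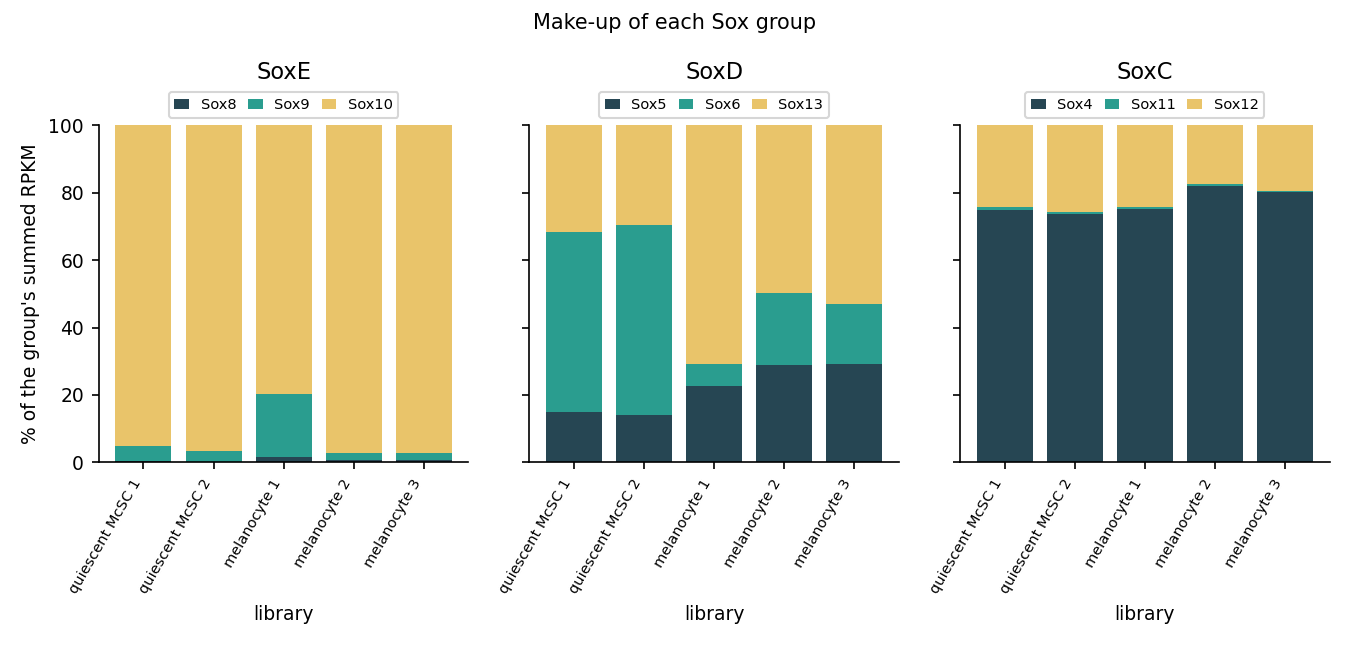
Share (in %) of each gene in the summed RPKM of its Sox group, one bar per library with the 2 quiescent McSC libraries on the left. Sox10 gives 95.0% and 96.7% of SoxE in quiescent McSC, Sox6 gives 53.6% and 56.4% of SoxD in quiescent McSC against 6.57% to 21.3% in melanocytes, and Sox4 gives most of SoxC in all 5 libraries.

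The SoxC genes were lower in quiescent McSC. Sox4 (Entrez gene 20677, chromosome 13, 28948919 to 28953699, minus strand), a factor of progenitor cells in many tissues, had 34.4 and 37.5 CPM in quiescent McSC, against 117, 118 and 184 CPM in melanocytes. Every melanocyte library was above both stem cell libraries, melanocyte replicate 1 included. The level in quiescent McSC was 0.258 times that in melanocytes (log2 fold change -1.95 ± 0.24 SE, adjusted p = 0.00105), and the log2 fold change was -2.07 without melanocyte replicate 1. Hair matrix and fibroblast markers were lower in quiescent McSC too (median log2 fold changes -5.37 and -6.47), and their part in the level of Sox4 was not tested.

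Sox11 (Entrez gene 20666, chromosome 12, 27334268 to 27342718, minus strand), the closest relative of Sox4, had 0.674 and 0.420 CPM in quiescent McSC, from 42 and 47 counts, against 1.16, 1.30 and 1.28 CPM in melanocytes, from 47, 89 and 24 counts. The groups did not overlap, and the 3 melanocyte libraries were nearly equal. The level in quiescent McSC was 0.436 times that in melanocytes (log2 fold change -1.20 ± 0.40 SE, adjusted p = 0.0427). This call ended when quiescent McSC replicate 1 (adjusted p = 0.071), quiescent McSC replicate 2 (0.222), melanocyte replicate 2 (0.0952) or melanocyte replicate 3 (0.0836) was left out. It also ended in the fit that blocks on replicate number (adjusted p = 0.132) and with no filter (0.0526). Of the summed SoxC RPKM, Sox4 gave 74.9% and 73.8% in quiescent McSC and 75.2% to 82.0% in melanocytes, and Sox11 less than 1% in each library.

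Promoter windows from RefSeq (GRCm38.p6, 250 bases before to 50 after a start site) were matched for 5 members, Sox8, Sox5, Sox6, Sox4 and Sox11. Those of Sox4 and Sox11 are shown because both genes were lower in quiescent McSC, and the first of 6 for Sox6 because that gene differed most within SoxD. Capitals mark the Sox core motifs AACAAT and ACAAAG, the TATA box TATAAA and the GC box GGGCGG, each on either strand. The windows are Sox4 at chr13:28953650-28953949, Sox11 at chr12:27342669-27342968 and Sox6 at chr7:116038695-116038994, all on the minus strand and printed 5′ to 3′.
Sox4: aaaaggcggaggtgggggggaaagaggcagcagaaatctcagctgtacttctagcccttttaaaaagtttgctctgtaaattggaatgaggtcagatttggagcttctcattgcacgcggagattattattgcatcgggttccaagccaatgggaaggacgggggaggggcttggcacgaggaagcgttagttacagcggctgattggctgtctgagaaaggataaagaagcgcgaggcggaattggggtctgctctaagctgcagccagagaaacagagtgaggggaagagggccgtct
Sox11: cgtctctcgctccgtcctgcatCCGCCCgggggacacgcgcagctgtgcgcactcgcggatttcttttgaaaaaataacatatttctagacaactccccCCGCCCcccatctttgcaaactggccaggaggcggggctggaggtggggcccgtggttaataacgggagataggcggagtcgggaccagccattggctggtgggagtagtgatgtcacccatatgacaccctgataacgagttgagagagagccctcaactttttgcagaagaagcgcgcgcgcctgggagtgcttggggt
Sox6: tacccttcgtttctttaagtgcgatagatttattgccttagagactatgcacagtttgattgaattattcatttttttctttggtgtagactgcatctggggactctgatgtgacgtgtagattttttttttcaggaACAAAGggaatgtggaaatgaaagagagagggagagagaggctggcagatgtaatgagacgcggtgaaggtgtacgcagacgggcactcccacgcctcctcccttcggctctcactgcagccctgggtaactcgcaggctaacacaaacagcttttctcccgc

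The Sox4 window held none of the 4 motifs, the Sox11 window held 2 GC boxes, and the Sox6 window shown held 1 ACAAAG. The Sox6 windows differed: window 2 held 1 ACAAAG and 4 GC boxes, window 5 held 2 AACAAT and 2 ACAAAG, and window 6 held 1 TATAAA. Among all 32851 windows of the same length, AACAAT was found in 10.7%, ACAAAG in 18.7%, TATAAA in 13.6% and GGGCGG in 35.7%. A match of letters is a description and not a bound site. The counts are per gene, so they do not show which Sox6 start was used.

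Ordered by RPKM, Pax3 led in quiescent McSC with 192 and 224, followed by Sox10 with 113 and 186. The next were Sox6 at 12.0 and 11.7, Sox4 at 7.17 and 7.83, Sox9 at 5.60 and 6.09, Sox5 at 3.32 and 2.94, Sox8 at 0.309 and 0.272, and Sox11 at 0.0811 and 0.0505. No neighbours in that order overlapped. In melanocytes Sox10 led with 17.9, 40.2 and 69.6 RPKM, overlapping with Sox4 at 24.4, 24.5 and 38.4 RPKM. Pax3 came next with 4.04, 11.3 and 14.1 RPKM and touched the range of Sox9, at 4.19, 0.890 and 1.56 RPKM. Sox5, which also overlapped with Sox9, had 1.44, 1.67 and 1.97 RPKM and Sox6 0.417, 1.24 and 1.20 RPKM, without overlap between them. Sox8, at 0.287 to 0.429 RPKM, overlapped with Sox6, and Sox11 was last in every melanocyte library. The order depends on the length used: with the longest coding transcript in place of all exons, Sox5 stood above Sox9 in the group means (6.21 against 5.85 RPKM in quiescent McSC, and 3.36 against 2.22 RPKM in melanocytes), and the ranges of the 2 genes overlapped in each group.

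Melanocyte replicate 1 differed from replicate 3 most in Sox10, Pax3 and Sox6. Its log2 ratio to replicate 3 was -1.96 for Sox10, -1.80 for Pax3 and -1.53 for Sox6. In Sox9 that ratio was 1.42, in the opposite direction. For Sox5, Sox4, Sox8 and Sox11 it was between -0.65 and -0.15. The pigment lineage sum had a log2 ratio of -2.66 and the fibroblast sum 1.55. Between the 2 stem cell libraries the log2 ratios, replicate 1 over 2, ran from -0.71 for Sox10 to 0.68 for Sox11.

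**Figure D4:**
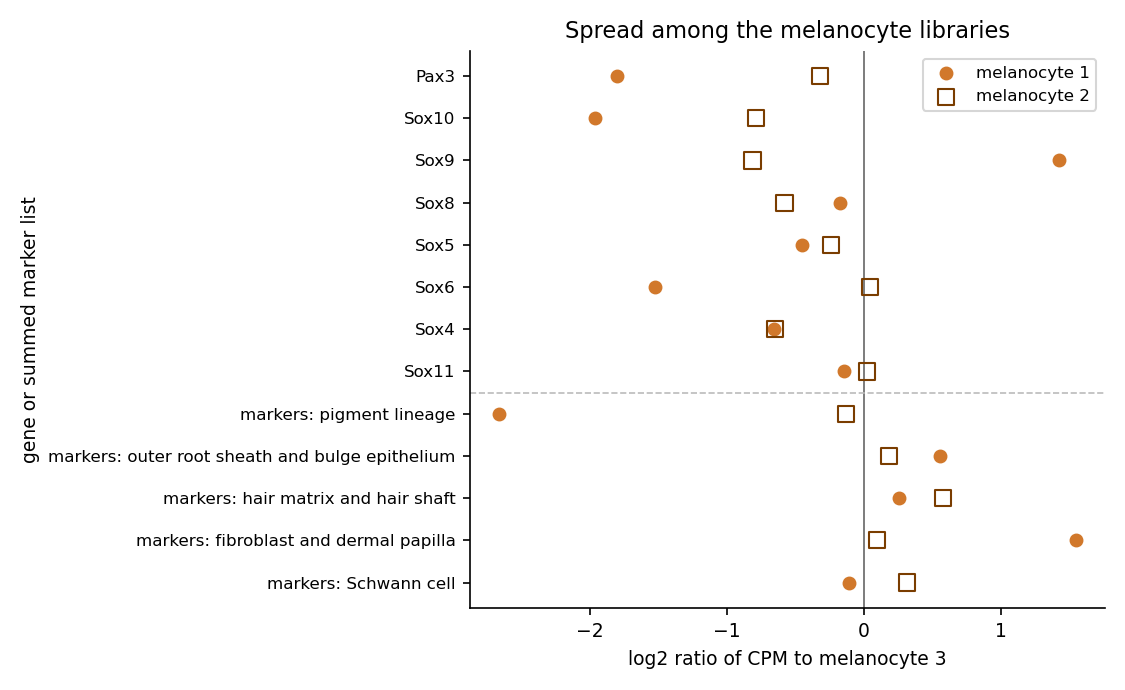
Log2 ratio of CPM in melanocyte replicates 1 (filled circles) and 2 (open squares) to melanocyte replicate 3, for each member and, below the dashed line, for summed marker lists. Replicate 1 lies at -1.96 for Sox10 and -2.66 for the pigment sum but at 1.42 for Sox9 and 1.55 for the fibroblast sum.

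Sox genes outside the members differed in both directions. Of 12 Sox genes outside the members, 8 were tested, 4 were lower (Sox12, Sox17, Sox18 and Sox21), 1 was higher (Sox13) and 3 were not called. Over all tested genes 29.1% were lower, 26.2% were higher and 55.4% were called in either direction. With a filter of 5 CPM in 2 libraries, 3 of these Sox genes were tested, of which 2 were lower and 1 higher. Sox21, a SoxB repressor expressed in the hair shaft cuticle, had 7.11 and 4.36 CPM in quiescent McSC, against 102, 74.2 and 129 CPM in melanocytes (log2 fold change -4.16 ± 0.35 SE, adjusted p = 0.000301). Sox12, the third SoxC gene, had 10.3 and 12.1 CPM in quiescent McSC, against 35.2, 23.3 and 41.7 CPM in melanocytes (-1.57 ± 0.27, adjusted p = 0.00412). In direction it was therefore like Sox4 and Sox11. Sox13 had 30.4 and 26.5 CPM in quiescent McSC, against 19.4, 12.5 and 15.4 CPM in melanocytes (0.85 ± 0.22, adjusted p = 0.0168). Its call was lost without either quiescent McSC library and with library size only, in each of which none of the other Sox genes was called higher. Sox18, an endothelial and dermal papilla factor, had 0.0962 and 0.00893 CPM in quiescent McSC, against 1.39 to 5.65 CPM in melanocytes, the highest in replicate 1 (-5.92 ± 1.21, adjusted p = 0.00761). The endothelial factor Sox17 had no count in quiescent McSC, against 34, 52 and 10 counts in melanocytes. Sox7 (-0.66 ± 0.49, adjusted p = 0.292) and Sox2 (-3.20 ± 1.23, adjusted p = 0.0683) were not called. Of 7 endothelial markers, 6 were also lower in quiescent McSC and 1, Esam, higher. They summed to 8.85 and 11.6 CPM in quiescent McSC, against 39.8, 47.9 and 21.3 CPM in melanocytes, with Cldn5 at 0 counts in quiescent McSC. Their part was not tested.

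The other Pax genes were low in both groups. Of the 8 other Pax genes 4 were tested, 1 of them called, beside 55.4% of all tested genes. Pax7, the paralog of Pax3 known from muscle stem cells, was lower in quiescent McSC, with 1 and 1 counts against 14, 12 and 11 counts in melanocytes (adjusted p = 0.00616). Without quiescent McSC replicate 2, 0 of these Pax genes were called. Pax1 had 0.449 and 0.196 CPM in quiescent McSC, against 6.61, 0.528 and 0.481 CPM in melanocytes (adjusted p = 0.107, not called). Skeletal muscle markers, relevant since Pax3 also acts in muscle progenitors, summed to 0.690 and 0.545 CPM in quiescent McSC, against 13.4, 22.5 and 13.1 CPM in melanocytes. Of 6 such markers, Pax7 among them, 4 were tested and these 4 were lower in quiescent McSC. The part of muscle cells in the Pax3 counts was not tested.

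Genes known as targets of Sox10 or Pax3 in pigment cells differed in both directions. Of 10 such genes, 4 were higher in quiescent McSC (Mitf, Mef2c, Erbb3 and Mia), 1 was lower (Ret) and 5 were not called (median log2 fold change 1.22), beside 26.2% of all tested genes higher and 29.1% lower. Erbb3, a neuregulin receptor, had 236 and 273 CPM in quiescent McSC, against 76.8, 73.4 and 77.0 CPM in melanocytes (1.75 ± 0.11, adjusted p = 0.000116). Mef2c, a MADS-box factor, had 120 and 86.2 CPM in quiescent McSC, against 16.2, 7.51 and 6.84 CPM in melanocytes (3.33 ± 0.40, adjusted p = 0.00101). The receptor gene Ret ran the other way, with 0.417 and 0.955 CPM in quiescent McSC, against 14.3, 11.3 and 7.59 CPM in melanocytes (-3.99 ± 0.51, adjusted p = 0.00123). Without melanocyte replicate 1, 6 of the 10 were higher and 4 lower.

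Glial targets of Sox10 divided. Of 7 genes, 3 were higher in quiescent McSC, S100b and Egr2 among them, 2 were lower, Mbp among them, and 2 were not called (median -0.29). Beside these counts and those of Schwann cell markers below, 26.2% of all tested genes were higher and 29.1% lower. Egr2, a Schwann cell factor and an immediate early gene, had 251 and 474 CPM in quiescent McSC, against 89.0, 123 and 87.0 CPM in melanocytes (1.86 ± 0.30, adjusted p = 0.00284). The lower genes numbered 1 without quiescent McSC replicate 1 or melanocyte replicate 2, and the higher ones 2 without quiescent McSC replicate 2 or melanocyte replicate 3. Markers of Schwann cells, which share members such as Egr2 and Mbp with these targets, divided likewise: 4 of 10 were higher and 5 lower in quiescent McSC, with a sum of 930 and 1142 CPM in quiescent McSC against 208, 279 and 224 CPM in melanocytes. None was at 0 in a group. Since Sox10 is shared by Schwann cells and melanocytes, its counts cannot be assigned to either.

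Targets in other lineages were low or not called. Of 5 genes known as Pax3 targets outside pigment cells, 4 were tested and edgeR called 0. The number was 1 with DESeq2 and with limma-voom, and also in edgeR with RLE size factors, with robust dispersion or without melanocyte replicate 1. At an unadjusted threshold of 0.05, edgeR passed 1 of the 4, the growth factor gene Tgfb2 (adjusted p = 0.0519), at 14.6 and 17.1 CPM in quiescent McSC against 12.5, 9.66 and 9.36 CPM in melanocytes. Of 7 cartilage genes that Sox9, Sox5 and Sox6 are known to switch on, 4 were tested. Among them 2 were lower in quiescent McSC, beside 29.1% of all tested genes. The 2 were Acan, with 0 and 3 counts in quiescent McSC against 80, 191 and 22 in melanocytes, and Comp, with 1 and 0 counts against 9, 11 and 2 in melanocytes. The number lower was 1 without melanocyte replicate 1, melanocyte replicate 2 or quiescent McSC replicate 2. Col2a1, the main cartilage collagen gene, had 0.594 and 1.12 CPM in quiescent McSC, against 1.73, 1.91 and 0.909 CPM in melanocytes.

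Of 20 cofactors and DNA-binding partners, 4 were higher in quiescent McSC (Tle1, Wwtr1, Ep300 and Crebbp), 9 were lower and 7 were not called (median -0.03). Over all tested genes 26.2% were higher, 29.1% were lower and 55.4% were called in either direction. Tle1, a Groucho corepressor, had 104 and 111 CPM in quiescent McSC, against 10.7, 5.67 and 8.29 CPM in melanocytes (3.72 ± 0.26, adjusted p = 0.000164). Tle4, the family member reported to work with Pax3 at the Dct gene, was lower, at 29.5 and 24.5 CPM in quiescent McSC against 51.7, 42.7 and 41.7 CPM in melanocytes. Smarca4, a chromatin remodeller that works with Sox10, had 137 and 140 CPM in quiescent McSC, against 333, 353 and 311 CPM in melanocytes (-1.26 ± 0.12, adjusted p = 0.000459). Yap1, a Hippo pathway coactivator, was lower in quiescent McSC (-0.93 ± 0.11, adjusted p = 0.00103), whereas its relative Wwtr1, a known Pax3 coactivator, was higher (0.78 ± 0.11). The higher cofactors numbered 2 without quiescent McSC replicate 2, 2 with library size only and 2 in the fit that blocks on replicate number.

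Likeness in pattern was read from the root-mean-square difference of log2 CPM centred over the 5 libraries. The genes most like each lead member were sought among 8494 genes with a mean of at least 20 CPM over those libraries. For Pax3 these were Slc4a8, a bicarbonate transporter (difference 0.26), Insc, an adaptor of spindle orientation (0.28), and Adcy2, an adenylyl cyclase (0.33). Slc4a8 had 200.3 and 233 CPM in quiescent McSC, against 3.85, 8.43 and 9.52 CPM in melanocytes. For Sox10 they were Tecpr1 (0.25), Camk2d (0.26) and Rgs10 (0.26). For Sox9 they were Grik5 (0.12), Tppp3 (0.22) and Arhgef25 (0.22). Grik5, a glutamate receptor subunit, had 31.6 and 39.1 CPM in quiescent McSC, against 23.3, 5.24 and 10.9 CPM in melanocytes.

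**Figure D5:**
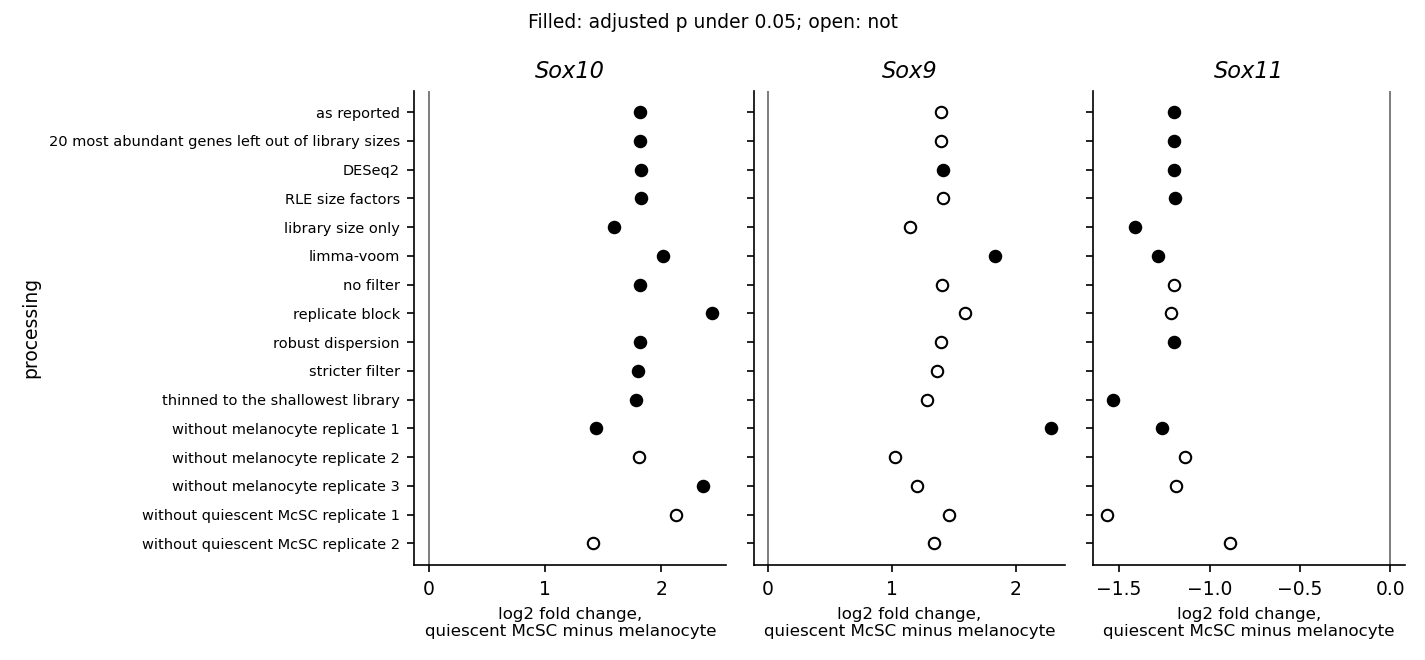
Log2 fold change, quiescent McSC minus melanocyte, of Sox10, Sox9 and Sox11 as reported and under each of the 15 alternative settings (1 of them gives no value for Sox11); filled points have an adjusted p under 0.05. Directions are constant, while each of the 3 genes lies on both sides of the threshold: the adjusted p reaches 0.158 for Sox10 and 0.222 for Sox11, and falls to 0.000562 for Sox9.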

How the data were processed

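The authors deposited a table of whole-number counts per Entrez gene, 1 column per library, read here as raw counts. Per the submitters' processing notes, STAR 2.5.2a, Salmon 0.8.2 and build mm10 were used; their roles are not stated, and the counting program and its annotation were not given in the sources used here. Per the labels' protocols the libraries were poly-A selected and not stranded. Of 24100 identifiers, 24045 matched a RefSeq symbol (GRCm38.p6, that is mm10).

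Genes were filtered with filterByExpr, scaled with TMM and tested across all genes with edgeR 4.0.16 under R 4.3.3 (quasi-likelihood F-test, two-sided). P-values were adjusted by Benjamini-Hochberg, and 0.05 was the threshold. The fit held all 5 libraries and no covariate. Log2 fold changes are quiescent McSC minus melanocyte, and standard errors follow from the F statistic. CPM use TMM-scaled library sizes; RPKM divide them by the union of exons in GENCODE M21. The log2 CPM for likeness used a prior count of 2. The libraries are biological replicates per the labels. The fitting procedure was tested on simulated counts.

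The members and lists were chosen with earlier results of these data known. The text names all members, Sox and Pax genes of at least 1 CPM in a group, the 3 called genes of smallest p in each target and cofactor list, and the 3 genes most like Pax3, Sox10 and Sox9; other named genes were chosen after their values were seen. The listed gene Krt85 was not analysed here, and counts over the glial lists include genes that are not reported here singly. Alternatives were RLE size factors, library size only, library sizes without the 20 most abundant genes, no filter, a filter of 5 CPM in 2 libraries, DESeq2 1.42.0, limma-voom (limma 3.58.1), robust dispersion, a replicate block, thinning to the shallowest library and leaving out each library. The transcript length alternative was added after seeing the data. Sox8 and Sox11 have the fewest counts and so the largest counting error of the members.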

Additional observations from a re-analysis of the deposited data

How the results depend on the processing

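All 8 members kept their direction under the alternatives that gave a value, 15 for each gene and 14 for Sox8 and Sox11, which the stricter filter removed. Pax3 (log2 fold change 4.03 to 4.94), Sox6 (3.27 to 4.02), Sox5 (0.67 to 1.01) and Sox4 (-2.18 to -1.71) were called in each of their alternatives, and Sox8 in none. Sox10, Sox9 and Sox11 changed sides as described above; the cause was not tested, except that a stricter filter leaves Sox11 untested. Members lower in quiescent McSC numbered 1 with no filter, with the stricter filter and with the replicate block, and 1 to 2 with a library left out. All genes higher in quiescent McSC numbered 2955 to 4857 with a library left out, the lowest without quiescent McSC replicate 2. With 1 quiescent McSC library in the fit, that library is assumed to vary like the melanocytes. The same replicate numbers occur in both groups, and deviations of the same-numbered libraries from their group mean correlated at 0.04 and -0.06 across genes. With 2 quiescent McSC libraries, the deviations of 1 mirror those of the other. These values are therefore not separate checks and cannot decide whether the numbers carry a pairing. The block gave 7412 called genes, 4 members higher and 1 lower. In the order by RPKM, 6 of the 8 members kept their rank in each group with the other length. Sox8 and Sox11 had the fewest counts of the members, 24 to 95 per library; thinned to the shallowest library, Sox11 kept its call (-1.53, adjusted p = 0.025).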

Other observations

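Several genes of the Sox, Pax and cofactor lists were highest in melanocyte replicate 1, the library with the lowest pigment sum; they were picked after their values were seen. Tle2, a Groucho corepressor, had 27.1 and 34.6 CPM in quiescent McSC, against 65.7, 3.71 and 4.54 CPM in melanocytes. Sox2, a marker of some dermal papilla cells, had 0.176 and 0.0625 CPM in quiescent McSC, against 2.54, 0.337 and 0.267 CPM in melanocytes. Pax1, Sox18 and Sox9 were likewise highest among the melanocyte libraries in replicate 1.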
